A study of Mus with 15 samples.

Results

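Fat grafts at day 3 were compared with control adipose tissue, in 5 libraries of each, by RNA sequencing of wild-type C57BL/6 mice aged 7 weeks. These are 10 of the 15 samples of the series, whose remaining 5 are day 7 grafts. The series title places the study in the metabolism and survival of grafted fat. The labels name neither the fat depot, the recipient site, the handling of the control tissue nor whether each library came from its own animal, so p-values measure the spread between these libraries. The genes described are the 15415 of 55471 in the deposited matrix with at least 10 counts in at least 5 of the 10 libraries. Of these, 197 reached 10 counts in the 5 controls alone and 179 in the 5 grafts alone, so their difference was built into the choice.

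A fat graft is adipose tissue that has been cut from its blood supply and placed at a new site, where its cells live by diffusion until vessels reconnect. Mature adipocytes store triglyceride, take up glucose under insulin, and burn fatty acids and branched-chain amino acids in mitochondria. Tissue that loses its blood flow is commonly entered by neutrophils, then by monocytes that become macrophages and clear dead cells and spilled lipid, while fibroblasts lay down matrix and vessels and nerves regrow. In bulk RNA, fewer cells of a type and less RNA per cell cannot be told apart, and that holds for every group of genes below.

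The libraries held 17.1 to 31.8 M estimated gene counts in controls and 23.7 to 29.4 M in grafts, and transcripts of the mitochondrial genome took 9.01 to 14.9% and 2.35 to 4.02% of them. Levels are counts per M of the scaled library size (CPM), given as mean ± SD with n = 5 a group or in the order of replicates 1 to 5, and changes are fitted log2 ratios of day 3 over control ± SE. A gene was called higher or lower at an adjusted p under 0.05 in limma.

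Of the 15415 genes, 4447 rose (28.8%) and 4386 fell (28.5%), so 57.3% were called. These shares are the background for every list count below. At least 2-fold changes were called for 2542 higher (16.5%) and 2558 lower genes (16.6%). Every graft lay above every control for 21.0% of genes and below for 20.3%. With scaling alone changed, 44.6 to 54.1% of called genes were higher, against 50.3% here. In a fit that changed the measure, the offset and the test together, limma-trend on log2(TPM + 1), 5862 rose and 2678 fell (68.6% higher), and the median change of all genes was 0.23 in place of -0.02. Protein-coding genes split 4160 to 3833. Long noncoding RNAs fell more often than they rose (375 against 171 of 912, median -0.57), and processed pseudogenes rose more often than they fell (55 against 10 of 202), although reads of a pseudogene and its parent gene can be shared.

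The label of adipose tissue was checked against marker genes whose CPM were summed in each library. The 8 adipocyte markers, all of them called lower at day 3, summed to 9512 to 27510.0 CPM in the controls and 872 to 2936 CPM in the grafts, and no library had any of them at 0. The 8 macrophage markers were all higher and summed to 1203 to 3175 CPM in the controls and 3898 to 9437 CPM in the grafts. Among the 6 neutrophil markers 4 rose, and the sums were 18.9 to 173 CPM in the controls and 76.7 to 451 CPM in the grafts, of which control 5 held the highest control value.

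Controls 2 and 4 and graft 1 stood apart in transcripts of other tissues, control 4 by having few from lymph node. Alternatives "without the 3 libraries that stand apart" leave out controls 2 and 4 and graft 1. They keep controls 1, 3 and 5, which held lymph node transcripts, so they do not free the controls of that tissue. Control 2 held skeletal muscle transcripts, with the 10 markers at 4350.0 CPM against 29.5 to 397 in the other controls, 327 in graft 1 and 3.97 to 8.04 in the other grafts. Lymph node transcripts were higher in controls 1, 2, 3 and 5 than in control 4. B cell markers stood at 1246 to 2194 CPM in those controls, 173 in control 4 and 3.55 to 8.25 in the grafts. Control 4 was thus low in B cell transcripts but not free of them. The sums of T and NK cell markers ran from 25.8 to 562 CPM in the controls and 3.09 to 11.9 CPM in the grafts, and those of lymph node stroma from 42.8 to 743 CPM in the controls and 8.08 to 49.1 CPM in the grafts, with the lowest control value of both in control 4. Red cell and platelet markers ranged from 158 to 2734 CPM in the controls and 1262 to 11020.0 CPM in the grafts. Control 5 had the highest control level of many genes of inflammation and matrix, and lay nearest the grafts on the first principal component, which held 73.1% of the variance. Mast cell, mammary and skin epithelial, and mesothelial markers summed to at most 191, 61.6 and 12.3 CPM in any library.

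**Figure D1:**
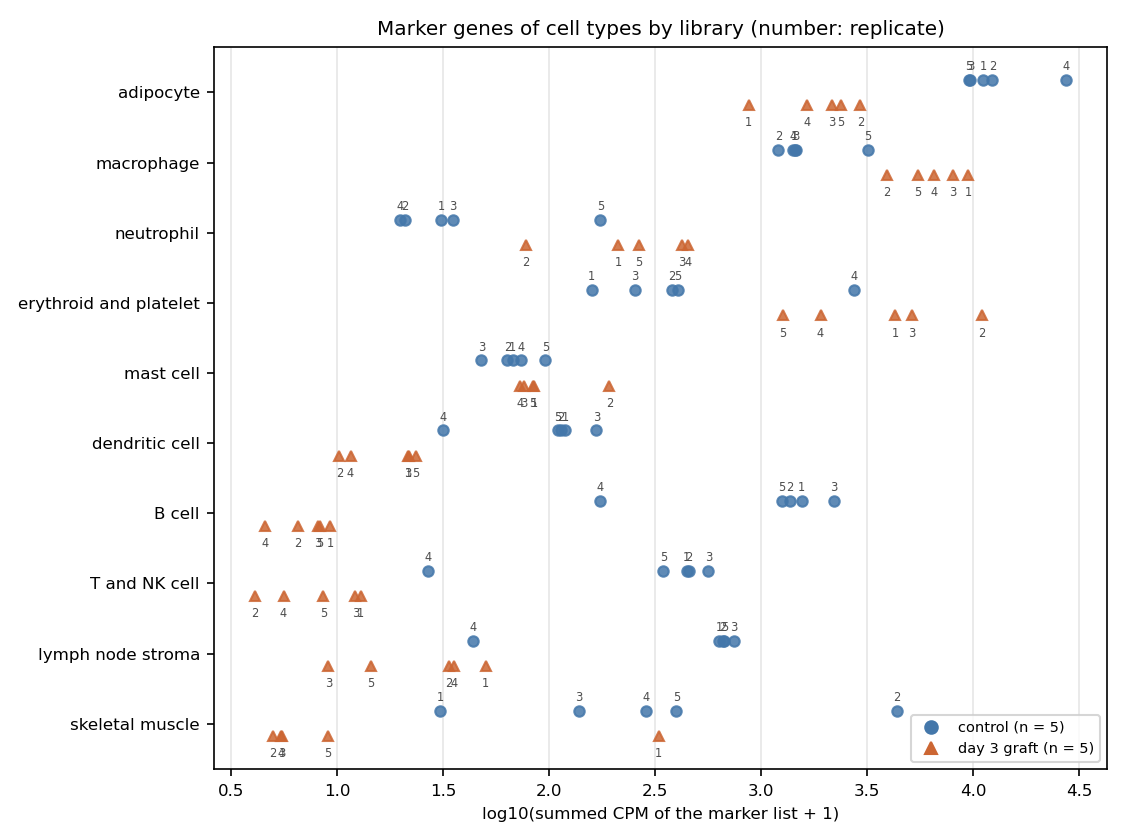
Summed CPM of 10 marker lists in each of the 10 libraries, on a log10 axis of summed CPM + 1, with controls as circles and day 3 grafts as triangles and the replicate number beside each point. Adipocyte sums of 9512 to 27510 CPM in the controls lie above the 872 to 2936 CPM of the grafts, macrophage sums the other way round, and control 4 falls below the other controls in B cell, T and NK cell and lymph node genes.

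Collagen chains and lysosomal enzymes joined the most abundant transcripts of the grafts. In the controls the top 10 held Scd1, the stearoyl-CoA desaturase, Fabp4, the fatty acid carrier of adipocytes, Car3, a carbonic anhydrase, and 7 transcripts of the mitochondrial genome or its nuclear copies, whose reads cannot be fully separated. Scd1 alone took 2.48% of the mean control library and 0.147% of the mean graft. In the grafts Col3a1, a fibrillar collagen of early scars, ranked first at 1.62%, against 0.225% in controls. Behind mt-Co1 and the translation factor Eef1a1 followed Sparc, Col1a2, the protease Ctsb, the matrix protein Fn1, Col1a1, the ferritin light chain Ftl1 and Psap, which encodes activators of lysosomal lipid breakdown. Eef1a1 was above every control in every graft, yet its change of 0.37 ± 0.15, adjusted p = 0.0552, did not pass. Eef1a1 passed in 5 of 20 alternatives (adjusted p 0.00556 to 0.0466), by leaving out control 5 or with all 15 samples in the fit, with limma-trend on TPM, with no filter or with sample quality weights.

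Many enzymes exist in paralogous forms, of which one is typical of adipocytes or oxidative tissue. In 48 such pairs, listed with the adipocyte or oxidative form first, 20 had the first form called lower and the second called higher. None had the opposite, 11 had both lower, 2 both higher, and 15 had a form that was not called. For comparison, 28.5% of all genes were called lower and 28.8% higher, and the pairs had been picked with earlier results known. The share of the second form in the summed TPM of its pair, a measure on which length is accounted for, was higher in every graft than in every control for 36 pairs. No such share was taken over pairs of other genes, so this count has no background. The 28.5% and 28.8% are for single genes, and the choice of pairs with results known favours a high count. Every graft was below every control in the share of the second form for the lipid droplet proteins Cidec and Cidea (from 16.2% to 2.17% Cidea) and the superoxide dismutases Sod3 and Sod2 (from 77.4% to 63.4% Sod2).

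The main carriers of glucose and lactate differed between control fat and grafts. Slc2a4, the insulin-responsive transporter, stood at 274, 256, 148, 294 and 107 CPM in the controls and 4.34, 12.5, 5.75, 3.98 and 9.69 in the grafts. Slc2a1, the basal transporter, was at 17.8, 15.7, 22.6, 11.2 and 24.6 CPM in controls and 129, 175, 254, 335 and 154 in grafts. Neither gene overlapped between groups, and the Slc2a1 share of their TPM went from a median of 5.64% (2.96 to 15.4) to 95.2% (92.5 to 98.5). Shares are medians of the 5 libraries, control before graft. Slc16a3, which exports lactate (ENSMUSG00000025161, chromosome 11, 120948480 to 120960868 on mm10), was at 1.91, 3.85, 1.39, 1.99 and 7.63 CPM in controls and 197, 173, 258, 315 and 192 in grafts (6.34 ± 0.38, adjusted p = 8.20e-06), so the lowest graft exceeded the highest control many times over. Its paralogue Slc16a1 did not pass (-0.19 ± 0.35, adjusted p = 0.651), and the Slc16a3 share went from 7.53% to 86.6%. The platelet-type phosphofructokinase Pfkp went from 70.2% to 92.9% of its pair with the muscle-type Pfkm, which stood at 130 CPM in control 2, the library with muscle.

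Among lipid enzymes, too, the second form of several pairs gained. Me1, the cytosolic malic enzyme that makes NADPH for lipid synthesis (ENSMUSG00000032418, chromosome 9, 86581371 to 86695953), was at 2427, 3231, 1530.0, 2876 and 783 CPM in controls and 50.3, 64, 56.5, 49.9 and 74.8 in grafts (-5.05 ± 0.32, adjusted p = 8.51e-06). Its mitochondrial paralogue Me2 was at 39.6, 35.6, 44.8, 20.2 and 42.9 CPM in controls and 114, 52.0, 122, 116 and 62.1 in grafts (1.32 ± 0.30, adjusted p = 0.00339), and went from 2.00% to 72.4% of the pair. Cpt1a, which admits fatty acids to mitochondria in many cell types, rose by 1.71 ± 0.21 and Cpt1b, the muscle and brown fat form, changed by -3.41 ± 0.54. Control 2 was at 47.0 CPM of Cpt1b, inside the range of the other controls. Acsl4, the arachidonate-preferring acyl-CoA synthetase, went from 1.26% to 28.7% beside Acsl1, and Elovl1, which extends saturated chains, from 27.4% to 95.9% beside the lipogenic Elovl6. Plin2, the droplet coat of many cell types, rose from 437 ± 120.1 to 1232 ± 263 CPM (1.52 ± 0.23, adjusted p = 0.000333) as Plin1, the coat of adipocyte droplets, fell (-2.29 ± 0.49). Lpin2 and the glycerol channel Aqp9 gained on Lpin1 and Aqp7 (from 13.8% to 64.9% and from 2.19% to 25.9%).

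The second form gained in further pairs as well, some of them linked to low oxygen. The part of low oxygen in these values was not tested. Ndufa4l2, which replaces the respiratory chain subunit Ndufa4 under low oxygen (ENSMUSG00000040280, chromosome 10, 127514967 to 127517154), was at 1.71, 1.84, 1.74, 2.86 and 1.45 CPM in controls and 55.9, 99.3, 68.9, 142 and 75.9 in grafts (5.45 ± 0.38, adjusted p = 1.19e-05). Its share of the pair went from 0.418% (0.294 to 0.629) to 37.9% (33.4 to 56.7). Cox4i2, the low-oxygen subunit of cytochrome oxidase, rose too (2.15 ± 0.43, adjusted p = 0.00158), but held 1.35% of the pair in the grafts. Bcat1, the cytosolic branched-chain aminotransferase, went from 1.58% to 54.1% beside the mitochondrial Bcat2. Cebpb, a transcription factor of early adipogenesis and of inflammation, went from 3.12% to 30.8% beside Cebpa, which maintains the mature adipocyte. Nos2, the inducible nitric oxide synthase, went from 8.40% to 82.1% beside the endothelial Nos3, and the protease inhibitor Timp1 from 51.0% to 99.9% beside the adipose form Timp4.

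**Figure D2:**
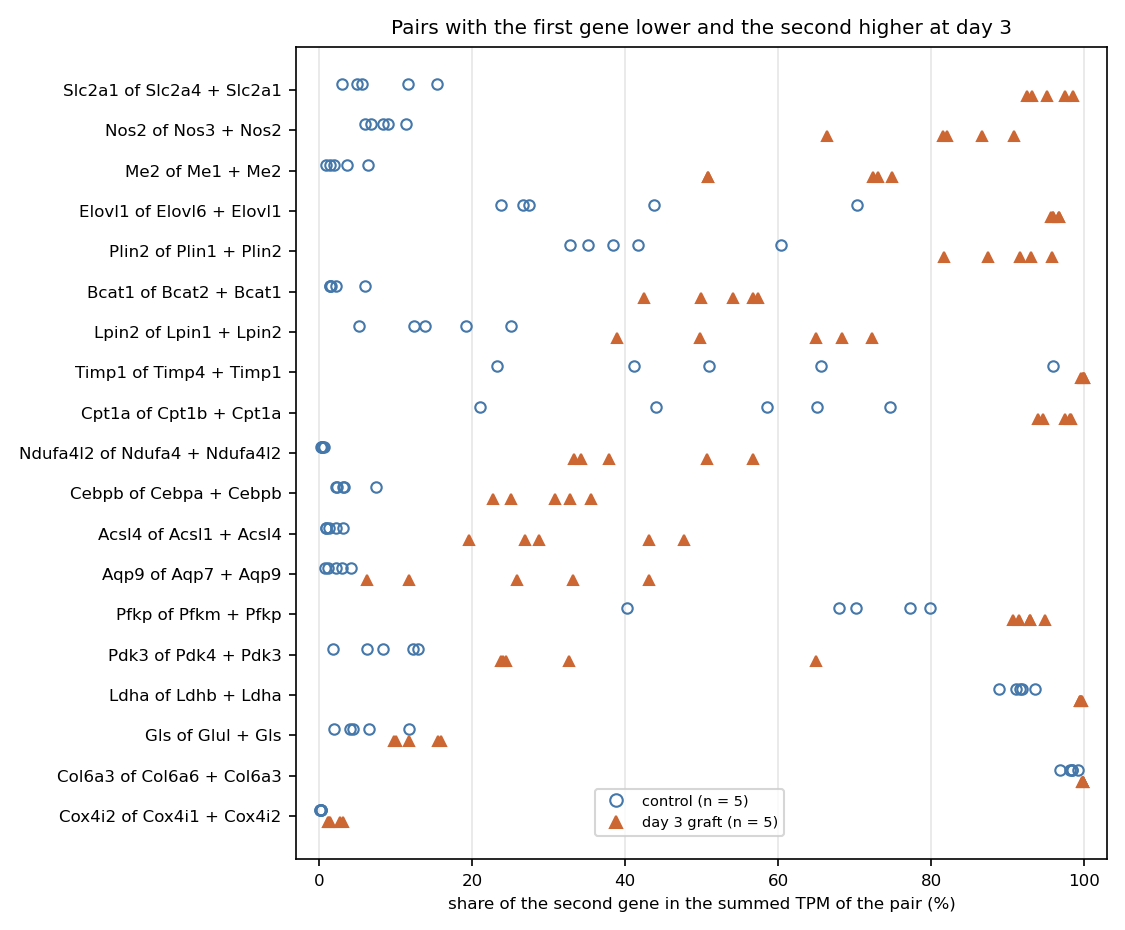
Share of the second gene in the summed TPM of its pair, in percent, for 19 of the 20 pairs whose first gene fell and second gene rose, with 5 control libraries as open circles and 5 day 3 grafts as filled triangles. The share of Slc2a1 beside Slc2a4 runs from 2.96 to 15.4% in the controls and from 92.5 to 98.5% in the grafts.

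The rest of sugar metabolism did not move as a block. In the list of glucose entry and glycolytic flux 19 of 29 rose and 6 fell, with a median of 0.89. Enzymes of the pentose phosphate pathway, which makes NADPH and ribose from glucose, included no higher gene, 6 of 9 lower and a median of -0.96. Tkt, its transketolase, was at 2072, 2288, 1378, 2538 and 532 CPM in controls and 182, 179.6, 215, 209 and 175 in grafts (-3.02 ± 0.34, adjusted p = 6.20e-05), and the transaldolase Taldo1 changed by -1.69 ± 0.24, adjusted p = 0.000222. G6pdx and Pgd, which carry out the NADPH-producing steps, did not pass (-0.45 ± 0.23 and -0.33 ± 0.26). In glycogen metabolism 10 of 18 fell and 3 rose. Gys2, a glycogen synthase of liver and fat, was at 57.1, 53.6, 25.2, 40.9 and 24.0 CPM in controls and 0.197, 0.246, 0.625, 0.355 and 0.338 in grafts (-6.77 ± 0.60, adjusted p = 2.30e-05). Pygl, a glycogen phosphorylase, fell (-1.43 ± 0.28, adjusted p = 0.00160), while the phosphoglucomutase Pgm2, Stbd1 and the UDP-glucose enzyme Ugp2 rose (1.73 ± 0.21, 0.92 ± 0.29 and 0.61 ± 0.19). G6pdx passed at an adjusted p of 0.0270 with sample quality weights and 0.0445 without control 3. Pgd passed at an adjusted p of 0.0333 with sample quality weights. Stbd1 lost its call at an adjusted p of 0.0535 without control 1, 0.0540 without control 3 and 0.0547 without control 5.

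Most genes of heat production and nearly all of branched-chain amino acid breakdown fell. Of 16 thermogenic genes 13 fell and none rose (median -3.74). Ucp1, the uncoupling protein of brown and beige fat, was at 309, 110.3, 21.7, 17.7 and 151 CPM in controls and 0.158, 0.457, 0.416, 0.0710 and 0.15 in grafts (-8.36 ± 1.88, adjusted p = 0.00334). Elovl3 (-6.71 ± 1.13), the coactivator Ppargc1a (-4.56 ± 0.50) and the nuclear receptor Ppara (-4.47 ± 0.63) lay below every control in every graft. For branched-chain amino acids 19 of 20 fell, none rose, and 19 were below every control in every graft (median -1.97). Ivd, isovaleryl-CoA dehydrogenase of leucine breakdown, was at 319.6, 301, 214, 557 and 237 CPM in controls and 34.2, 45.0, 33.1, 31.6 and 37.8 in grafts (-3.08 ± 0.22, adjusted p = 1.26e-05). Aldh6a1 of valine breakdown changed by -3.58 ± 0.26, adjusted p = 1.39e-05, the carboxylase subunit Mccc1 by -3.02 ± 0.24 and the dehydrogenase subunit Bckdha by -2.68 ± 0.27.

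Hormones that fat secretes moved both ways. Of 14 tested, 8 fell and 5 rose. The leptin gene Lep was at 279, 139, 44.3, 145 and 58.5 CPM in controls and 22.6, 62.0, 28.4, 11.4 and 29.8 in grafts (-2.02 ± 0.54, adjusted p = 0.00878), with graft 2 above control 3 and control 5. Nrg4 (-3.27 ± 0.32), the resistin gene Retn (-3.34 ± 0.38) and Angptl8, an inhibitor of lipoprotein lipase (-4.43 ± 0.49), also fell. Rarres2, which encodes the leukocyte attractant chemerin, rose from 157 ± 112 to 1108 ± 501 CPM (2.93 ± 0.46, adjusted p = 0.000372), the stress hormone Gdf15 by 4.77 ± 0.45 and Apln, the vessel peptide apelin, by 5.98 ± 0.51. Angptl4, another lipase inhibitor, rose with overlap (1.11 ± 0.43, adjusted p = 0.0467). In insulin signalling 9 of 20 fell and 4 rose. Irs1 (-2.07 ± 0.46), the antilipolytic phosphodiesterase Pde3b (-2.11 ± 0.35) and Akt2 (-1.23 ± 0.24) fell, while Igf1r (0.95 ± 0.15), Akt1 (0.99 ± 0.11), the receptor inhibitor Grb10 (1.66 ± 0.27) and the IGF carrier Igfbp3 rose. Igfbp3 was at 33.2, 31.1, 36.8, 17.6 and 67.3 CPM in controls and 305, 1654, 843, 1289 and 1167 in grafts (4.75 ± 0.46, adjusted p = 3.17e-05). Lep lost its call at an adjusted p of 0.0743 without the 3 libraries that stand apart. Angptl4 lost its call in 10 of 20 alternatives (adjusted p 0.0502 to 0.104), by leaving out controls 1, 2, 3 or 5 or grafts 2, 3, 4 or 5 or with the filter at 1 CPM or with upper-quartile scaling.

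Most called genes of cholesterol synthesis fell, while the lysosomal lipase and cholesterol exporter rose. In synthesis and its control 12 of 24 fell and 4 rose. Insig1, a sterol sensor, was at 499, 177, 175, 345 and 70.1 CPM in controls and 38.6, 55.5, 48.6, 40.4 and 37.0 in grafts (-2.24 ± 0.42, adjusted p = 0.00106), and the enzymes Pmvk (-2.30 ± 0.26), Sc5d (-2.01 ± 0.31) and Nsdhl (-1.76 ± 0.25) fell. The sterol carrier Stard4 was among the 4 that rose (0.86 ± 0.17, adjusted p = 0.00148). Among genes of storage and efflux the acid lipase Lipa (2.19 ± 0.20, adjusted p = 2.48e-05), the esterifying enzyme Soat1 (2.23 ± 0.36, adjusted p = 0.000434), Ch25h (1.94 ± 0.42) and the lysosomal exporter Npc1 (1.39 ± 0.16) rose. Cyp27a1 (-1.13 ± 0.25), the oxysterol receptor gene Nr1h3 (-0.98 ± 0.19), Mylip (-0.97 ± 0.14), Apoe (-0.76 ± 0.19, adjusted p = 0.00622) and Scarb1 (-0.51 ± 0.17, adjusted p = 0.0253) fell, so that 6 of 12 rose and 5 fell. In the list of lipid droplets and fatty acid handling 17 of 27 fell and 5 rose, namely Plin2, Acsl4, Plin3 (0.92 ± 0.15), Acsl5 (0.32 ± 0.10, adjusted p = 0.0208) and Hilpda. The highest was Hilpda, an inhibitor of triglyceride lipase induced by low oxygen, at 4.14, 3.85, 4.56, 6.85 and 15.1 CPM in controls and 48.0, 138, 165, 201 and 129 in grafts (4.34 ± 0.49, adjusted p = 6.26e-05). Scarb1 lost its call in 7 of 20 alternatives (adjusted p 0.0504 to 0.156), by leaving out control 1 or grafts 1, 4 or 5 or without the 3 libraries that stand apart, with limma-trend on TPM or with the replicate block. Acsl5 lost its call in 6 of 20 alternatives (adjusted p 0.0502 to 0.118), by leaving out control 2 or grafts 1 or 3 or without the 3 libraries that stand apart, with library totals or with upper-quartile scaling.

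Several enzymes of arginine, proline and polyamine metabolism rose, and serine and folate enzymes went both ways. Arg1, the arginase of liver and of wound macrophages, was at 0.621, 0.460, 0.0895, 1.74 and 7.59 CPM in controls and 658, 597, 1999.7, 2401 and 625 in grafts (10.21 ± 0.94, adjusted p = 2.48e-05). Nos2, which competes for the same substrate, was at 3.67, 4.37, 3.09, 5.48 and 1.78 CPM in controls and 56.9, 68.0, 74.1, 179 and 86.2 in grafts (4.61 ± 0.43, adjusted p = 2.50e-05). Both were above every control in every graft. The proline enzymes Pycr1 (2.82 ± 0.28) and Aldh18a1 (1.41 ± 0.20) and the polyamine enzymes Odc1 (1.03 ± 0.17), Smox (2.34 ± 0.19) and Sat1 (1.35 ± 0.16) rose, and Prodh, which degrades proline, fell (-3.44 ± 0.42, adjusted p = 8.71e-05), as did Nos3 (-1.27 ± 0.35, adjusted p = 0.0108). In all 13 of 19 members of that list rose and 2 fell. Among serine and folate enzymes 6 of 14 rose and 5 fell. The mitochondrial Aldh1l2 (ENSMUSG00000020256, chromosome 10, 83487450 to 83534140) was at 1.81, 1.78, 0.939, 3.11 and 6.98 CPM in controls and 77.5, 64.8, 63.3, 115 and 77.6 in grafts (5.04 ± 0.41, adjusted p = 1.74e-05), and the mitochondrial Mthfd1l (1.95 ± 0.66, adjusted p = 0.0263) and Mthfd2 (0.92 ± 0.33, adjusted p = 0.0339) rose, while the mitochondrial Shmt2 did not pass (0.50 ± 0.25, adjusted p = 0.107). Their cytosolic counterparts Aldh1l1 (-3.12 ± 0.29, adjusted p = 2.48e-05), Shmt1 (-1.63 ± 0.29) and Mthfd1 (-0.99 ± 0.12) fell, as did Psph (-1.35 ± 0.20) and Phgdh, the first enzyme of serine synthesis (-2.43 ± 0.29, adjusted p = 7.84e-05). Arg1 changed by 9.43 without control 3 and 11 without control 5. Nos3 lost its call at an adjusted p of 0.0614 without the 3 libraries that stand apart. Mthfd1l changed by 1.12 without control 4. Mthfd1l lost its call at an adjusted p of 0.0580 with the replicate block, 0.0519 without graft 3 and 0.0557 without graft 4. Mthfd2 lost its call in 8 of 20 alternatives (adjusted p 0.0526 to 0.102), by leaving out control 2 or grafts 1, 3, 4 or 5 or without the 3 libraries that stand apart, with library totals or with upper-quartile scaling. Shmt2 passed at an adjusted p of 0.0446 with sample quality weights and 0.0427 without control 3.

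Most immediate early genes and endoplasmic reticulum chaperones rose, and a smaller share of the other stress lists. Of 20 immediate early genes, which cells switch on within minutes of a stimulus, 16 rose and none fell (median 1.72). Fos was at 4.86, 4.02, 5.23, 7.60 and 19.6 CPM in controls and 144, 324, 135, 220.0 and 249.7 in grafts (4.85 ± 0.41, adjusted p = 1.88e-05), and its relative Fosl1 at 0.0517, 0.0575, 0.0447, 0.415 and 3.23 CPM in controls and 13.2, 43.2, 32.1, 49.0 and 27.7 in grafts (7.00 ± 1.06, adjusted p = 0.000319). Nr4a1 (0.66 ± 0.41, adjusted p = 0.184), Nr4a2 (-0.47 ± 0.28), Nr4a3 (-0.57 ± 0.33) and Egr3 (-0.35 ± 0.69) were not called. Of 20 genes of the integrated stress response 9 rose, led by Aldh1l2, Atf3 (4.75 ± 0.34, adjusted p = 1.21e-05) and Trib3 (1.70 ± 0.37, adjusted p = 0.00282), while Phgdh and Asns (-0.69 ± 0.23, adjusted p = 0.0245) fell. Chaperones of the endoplasmic reticulum rose in 15 of 20 cases, among them P4hb, which also serves collagen hydroxylation (2.20 ± 0.23, adjusted p = 4.39e-05), and Hsp90b1 (1.48 ± 0.22), and Herpud1 fell (-0.40 ± 0.10, adjusted p = 0.00765). Heat shock genes and metallothioneins included 8 higher and 2 lower of 17. Hspa1a (4.40 ± 0.43) and its near-identical copy Hspa1b (3.67 ± 0.38) both rose, although reads can be split between them, and the mitochondrial chaperone Hspd1 (-0.89 ± 0.19, adjusted p = 0.00258) and the heat shock factor Hsf1 (-0.37 ± 0.12, adjusted p = 0.0220) fell. Fosl1 changed by 7.97 without control 5. Nr4a1 passed at an adjusted p of 0.0434 without the 3 libraries that stand apart, 0.0374 with limma-trend on TPM and 0.0491 without graft 1. Egr3 had a log2 change of -0.96 without control 4. Asns lost its call in 6 of 20 alternatives (adjusted p 0.0513 to 0.0901), by leaving out controls 1 or 5 or grafts 1 or 5 or without the 3 libraries that stand apart or with limma-trend on TPM. Herpud1 lost its call at an adjusted p of 0.0697 with library totals and 0.463 with limma-trend on TPM. Hsf1 lost its call in 7 of 20 alternatives (adjusted p 0.0502 to 0.729), by leaving out controls 1 or 3 or grafts 3 or 4 or with library totals, with limma-trend on TPM or with no filter.

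Genes of heme breakdown and iron storage were higher. Hmox1, the heme oxygenase that frees iron from heme (ENSMUSG00000005413, chromosome 8, 75093621 to 75100589), was at 66.4, 32.2, 31.8, 64.7 and 415 CPM in controls and 2536, 1031, 2431, 3348 and 715 in grafts (4.60 ± 0.80, adjusted p = 0.000752). All grafts were above all controls, and control 5 was the highest control. Biliverdin reductases Blvra (1.14 ± 0.14) and Blvrb (0.94 ± 0.18), ferritins Ftl1 (1.90 ± 0.22, adjusted p = 7.54e-05) and Fth1 (1.01 ± 0.26, adjusted p = 0.00658), the phagosomal iron pump Slc11a1 (3.43 ± 0.36, adjusted p = 4.40e-05) and the reductase Steap1 (4.78 ± 0.64) rose. The transferrin receptor Tfrc (-0.64 ± 0.21, adjusted p = 0.0226) and the ferroxidase Cp (-0.91 ± 0.25, adjusted p = 0.0104) fell. In all 12 of 20 rose and 2 fell. The hemoglobin gene Hbb-bs, at 81.5, 238, 139, 1725 and 231 CPM in controls and 2360.5, 6434, 2614, 137 and 492 in grafts, did not pass (2.28 ± 1.06, adjusted p = 0.0857), and its part in the heme result was not tested. Targets of NRF2, the oxidant-sensing factor, did not move together, with 12 of 23 higher and 6 lower. Srxn1 (2.11 ± 0.29), Prdx1 (1.29 ± 0.25) and Txnrd1 (1.04 ± 0.19) rose, while the glutathione transferases Gsta3 (-5.34 ± 0.49, adjusted p = 2.48e-05) and Gsta4 (-4.58 ± 0.53), Me1 and the catalase Cat (-2.24 ± 0.23) fell. Among antioxidant enzymes 9 of 16 rose, led by Glrx (2.15 ± 0.32), and Cat, Txnrd2 (-0.98 ± 0.21), Sod1 (-1.31 ± 0.24, adjusted p = 0.000866), the lipid peroxidase Gpx4 (-1.30 ± 0.30, adjusted p = 0.00376) and the mitochondrial Prdx3 (-1.63 ± 0.17) fell. Hmox1 changed by 5.23 without control 5. Steap1 changed by 5.62 without control 5. Tfrc lost its call in 7 of 20 alternatives (adjusted p 0.0503 to 0.266), by leaving out controls 1 or 2 or grafts 3 or 4 or with library totals, with limma-trend on TPM or with no filter. Hbb-bs passed in 5 of 20 alternatives (adjusted p 0.00997 to 0.0486), by leaving out control 4 or graft 4 or with all 15 samples in the fit, without the 3 libraries that stand apart or with sample quality weights.

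Most genes of the death list were called higher, and the count of higher cell cycle genes moved with the libraries included. In the list of p53 targets and death genes 15 of 21 rose and 3 fell. Mlkl, the effector of necroptosis, was at 10.9, 12.4, 12.1, 19.8 and 21.8 CPM in controls and 75.6, 47.6, 64.7, 61.1 and 52.9 in grafts (1.99 ± 0.21, adjusted p = 4.59e-05), its kinase Ripk3 rose by 2.27 ± 0.38, the inflammasome sensor Nlrp3 by 3.01 ± 0.51 and the cell cycle inhibitor Cdkn1a by 2.33 ± 0.47. Trp53inp1 (-2.28 ± 0.29, adjusted p = 0.000106), Phlda3 (-1.56 ± 0.35) and Ccng1 (-0.45 ± 0.17) fell. Cell cycle genes included 16 higher of 27, such as Cdk1 (1.91 ± 0.36, adjusted p = 0.00112) and Cdc20 (1.55 ± 0.43, adjusted p = 0.0104), and 1 lower, the replication helicase subunit Mcm7 (-0.52 ± 0.18, adjusted p = 0.0258). Mki67 overlapped, at 66.8, 45.8, 143, 13.9 and 126 CPM in controls and 144, 89.6, 133, 72.0 and 147 in grafts (0.91 ± 0.57, adjusted p = 0.193), with the lowest value in control 4, the library with the fewest lymph node transcripts, whose part in these values was not tested. Without the 3 libraries that stand apart 6 cell cycle genes rose. Ccng1 lost its call in 12 of 20 alternatives (adjusted p 0.0509 to 0.398), by leaving out controls 1, 2, 4 or 5 or grafts 2, 3, 4 or 5 or without the 3 libraries that stand apart, with limma-trend on TPM, with no filter or with the replicate block. Cdc20 lost its call at an adjusted p of 0.0512 without the 3 libraries that stand apart. Mcm7 lost its call in 6 of 20 alternatives (adjusted p 0.0572 to 0.316), by leaving out controls 3 or 5 or graft 4 or with library totals, with limma-trend on TPM or with no filter. Mki67 passed at an adjusted p of 0.0296 with sample quality weights and 0.0459 with the replicate block.

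**Figure D3:**
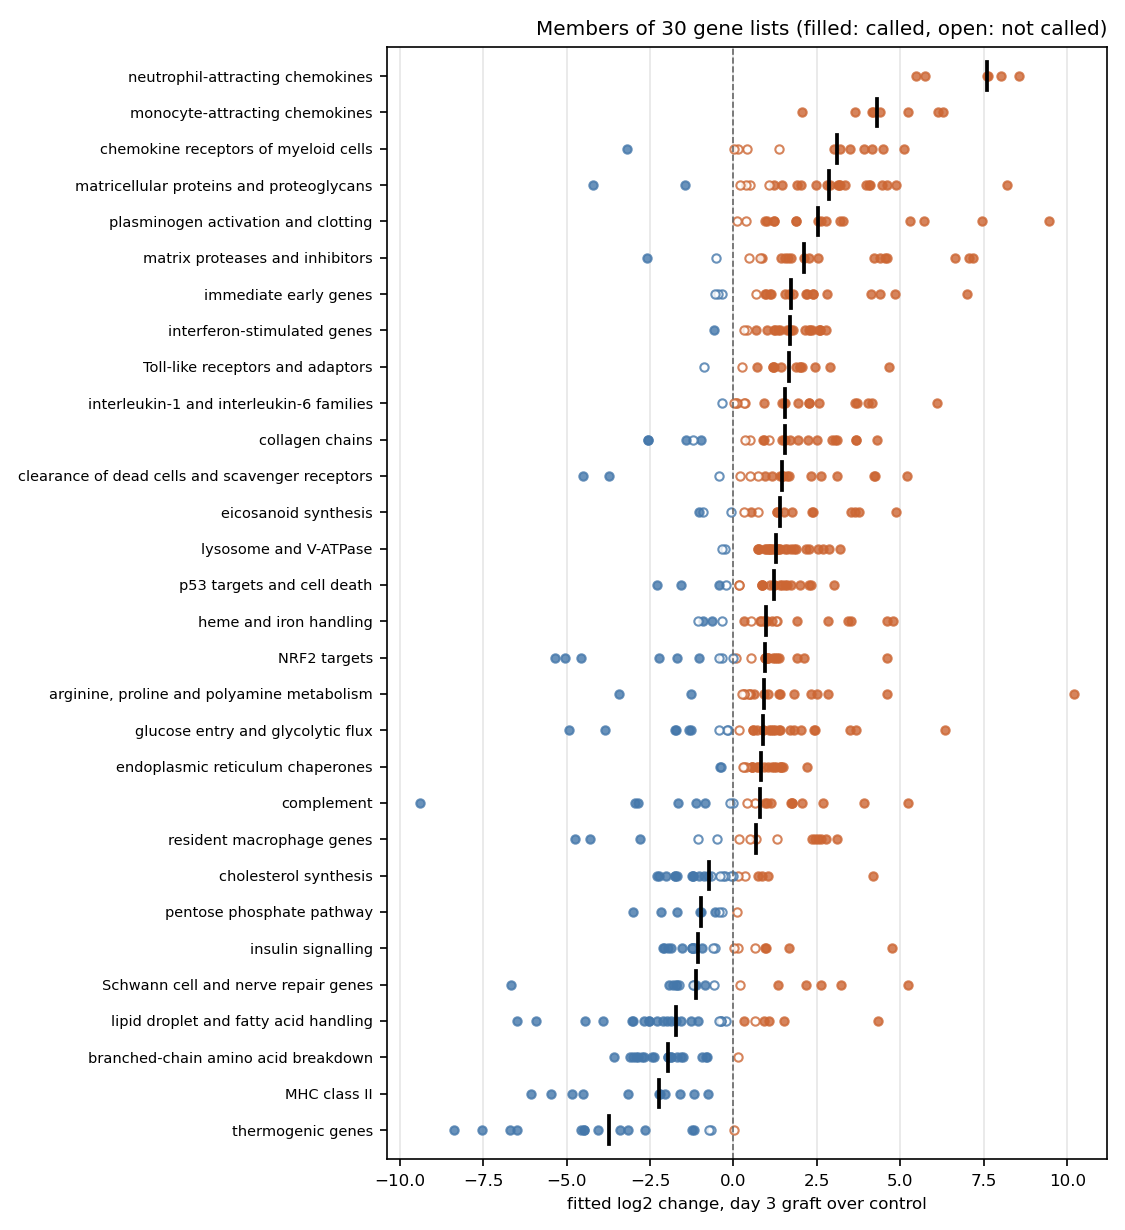
Fitted log2 change of each tested member of 30 gene lists, 1 row a list, ordered by the list median, which a vertical bar marks. Filled points passed an adjusted p of 0.05, open points did not, and the dashed line marks the median of all 15415 genes at -0.02. Neutrophil and monocyte attractants lie at the top and thermogenic genes at the bottom.

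Every chemokine in the lists of neutrophil and monocyte attractants rose. All 6 neutrophil attractants rose (median 7.61) and all 8 monocyte attractants (median 4.29). Cxcl5 was at 0, 0, 0.0447, 0.208 and 14.1 CPM in controls and 41.3, 55.1, 31.1, 190.2 and 117 in grafts (8.56 ± 1.62, adjusted p = 0.00122). Cxcl2 (7.59 ± 0.86) and Cxcl3 (8.02 ± 1.35) had similar sizes of change, and so did Ppbp, at 0.724, 0.460, 0.447, 1.2 and 2.48 CPM in controls and 114, 105, 224, 711 and 91.7 in grafts (7.63 ± 0.95, adjusted p = 9.98e-05). Ppbp and Pf4 (5.47 ± 0.46, adjusted p = 1.88e-05), both counted in the list of neutrophil attractants, are known best from platelets. Red cell and platelet markers, a list that holds both genes, summed to 158 to 2734 CPM in the controls and 1262 to 11020.0 CPM in the grafts. Of the 8 tested 3 were higher and none lower (median 2.31). The integrin Itga2b did not pass (-0.81 ± 0.39, adjusted p = 0.0938), and the part of platelets in these values was not tested. Ccl2 (6.13 ± 0.52), Ccl7 (6.27 ± 0.58), Ccl3 (5.23 ± 0.37), Ccl9 (4.19 ± 0.80), Ccl4 (4.40 ± 0.29), Ccl6 (4.17 ± 0.71), Ccl12 (3.64 ± 0.48) and Ccl8 (2.05 ± 0.47) made up the monocyte list. Among 14 other chemokines 5 rose and 4 fell (4 and 6 without the 3 libraries that stand apart, 3 and 3 without control 1 or without control 2). The highest were Ccl24 (2.36 ± 0.45, adjusted p = 0.00134) and Cxcl10, with Cxcl12 (1.10 ± 0.28), Cxcl14 (1.36 ± 0.45) and Ccl11 (1.08 ± 0.41). The lymphoid chemokines Ccl19 (-4.40 ± 1.58, adjusted p = 0.0339) and Cxcl13 (-2.60 ± 0.66, adjusted p = 0.00629), Cxcl9 and Ccl25 (-0.67 ± 0.14) fell. Cxcl5 changed by 7.88 without control 1, 7.95 without control 2 and 10.21 without control 5. Cxcl2 changed by 8.29 without control 5. Cxcl3 changed by 7.40 without control 1 and 8.84 without control 5. Itga2b passed at an adjusted p of 0.00212 without the 3 libraries that stand apart, 0.00960 with sample quality weights and 0.00575 without control 4. Ccl2 changed by 6.78 without control 5. Ccl7 changed by 6.99 without control 5. Ccl9 changed by 4.80 without control 5. Cxcl14 lost its call in 4 of 20 alternatives (adjusted p 0.0640 to 0.0666), by leaving out controls 1, 2 or 3 or with the replicate block. Ccl11 lost its call in 8 of 20 alternatives (adjusted p 0.0556 to 0.0937), by leaving out controls 1, 2 or 3 or grafts 1, 2 or 5 or without the 3 libraries that stand apart or with upper-quartile scaling. Ccl19 changed by -5.43 without control 4. Ccl19 lost its call in 9 of 20 alternatives (adjusted p 0.0515 to 0.0667), by leaving out controls 1, 2 or 5 or grafts 1, 2, 3, 4 or 5 or with library totals. Ccl25 lost its call at an adjusted p of 0.115 with limma-trend on TPM.

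Several chemokine receptors and growth factors of myeloid cells rose. Ccr2, the monocyte receptor for Ccl2, was at 40.4, 32.3, 47.0, 41.6 and 95.3 CPM in controls and 595, 263, 479, 461 and 427 in grafts (3.18 ± 0.31, adjusted p = 3.25e-05). Ccr1 (4.48 ± 0.53) and the formyl peptide receptor Fpr1 (5.12 ± 0.97) rose, and 7 of 12 did so in all. Cxcr2, the receptor of neutrophils for Cxcl2 and Cxcl5, was at 12.3, 7.99, 14.5, 2.91 and 12.3 CPM in controls and 14.1, 1.83, 20.2, 33.1 and 12.1 in grafts, and did not pass (0.41 ± 0.77, adjusted p = 0.672). The scavenging receptor Ackr4 fell (-3.19 ± 0.52, adjusted p = 0.000506). Among colony-stimulating factors Csf1 (1.79 ± 0.18), Csf2 (3.00 ± 0.40) and Csf3 (4.52 ± 1.43, adjusted p = 0.0195) rose, and the lymphoid and dendritic receptor Flt3 fell (-2.55 ± 0.80, adjusted p = 0.0186), with 7 of 10 in that list higher. Of the genes tied to neutrophils 11 of 16 rose and 2 fell, and without the 3 libraries that stand apart 7 rose and 1 fell. The lower ones were G0s2, a lipase inhibitor abundant in adipocytes (-1.06 ± 0.37, adjusted p = 0.0313), and the elastase gene Elane (-2.36 ± 0.50, adjusted p = 0.00230). S100a8 was at 2.17, 1.67, 3.04, 1.62 and 33.1 CPM in controls and 26.2, 8.96, 77.9, 75.5 and 47.1 in grafts (3.32 ± 0.96, adjusted p = 0.0129), with control 5 above grafts 1 and 2. The lectin Clec4d (6.85 ± 0.93, adjusted p = 0.000164) and Acod1, which makes itaconate (6.34 ± 0.80, adjusted p = 0.000110), are also made by macrophages. Retnlg, a neutrophil gene, did not pass (1.74 ± 1.13, adjusted p = 0.209), and the granule genes Camp, Ltf, Mpo and Ngp had too few counts for the test. Fpr1 changed by 6.00 without control 5. Cxcr2 had a log2 change of 1.10 without graft 2. Csf3 changed by 5.62 without control 5 and 5.19 without graft 1. Csf3 lost its call in 4 of 19 alternatives (adjusted p 0.0504 to 0.0587), by leaving out controls 1, 2 or 4 or without the 3 libraries that stand apart. Flt3 changed by -3.21 without control 4. G0s2 lost its call in 8 of 20 alternatives (adjusted p 0.0516 to 0.148), by leaving out controls 1, 2 or 4 or grafts 1 or 4 or without the 3 libraries that stand apart, with limma-trend on TPM or with the replicate block. S100a8 changed by 4.13 without control 5. S100a8 lost its call at an adjusted p of 0.0879 without the 3 libraries that stand apart. Clec4d changed by 6.24 without control 2 and 7.95 without control 5. Acod1 changed by 7.00 without control 5. Retnlg had a log2 change of 2.37 without graft 2. Retnlg passed at an adjusted p of 0.0173 with sample quality weights and 0.0450 without control 5.

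Many genes of the IL-1 and IL-6 families and most Toll-like receptors rose. Il6 was at 0.207, 0.172, 0.179, 0.249 and 3.09 CPM in controls and 10.8, 44.1, 12.5, 62.3 and 32.8 in grafts (6.11 ± 1.17, adjusted p = 0.00133), and Il1b at 2.38, 1.55, 3.53, 4.03 and 24.5 CPM in controls and 47.0, 22.1, 85.2, 82.0 and 78.1 in grafts (3.70 ± 0.67, adjusted p = 0.000951), where control 5 exceeded graft 2. The IL-1 receptor antagonist Il1rn (3.66 ± 0.51), Il11 (4.02 ± 0.39) and Lif (2.55 ± 0.43) rose, and 13 of 19 members of the IL-1 and IL-6 families did so. Il1a did not pass (0.11 ± 0.66, adjusted p = 0.896). In the TNF list 9 of 16 rose and 2 fell. The ligand Tnf itself did not pass (1.00 ± 0.58, adjusted p = 0.162), the hyaluronan-binding Tnfaip6 (4.72 ± 0.59, adjusted p = 0.000106) and the decoy receptor Tnfrsf11b (3.78 ± 0.94) rose, and the ligands Tnfsf10 (-1.83 ± 0.19, adjusted p = 4.01e-05) and Tnfsf13b (-0.98 ± 0.24) fell. Toll-like receptors and adaptors rose in 12 of 14 cases, with Tlr13, a sensor of bacterial ribosomal RNA, at 4.66 ± 0.58 and Cd14 at 2.45 ± 0.53. Prostanoid genes included 11 higher of 16, led by the inducible cyclooxygenase Ptgs2 (4.87 ± 0.71, adjusted p = 0.000246) and the thromboxane synthase Tbxas1 (3.75 ± 0.42), while the prostaglandin E synthase Ptges fell (-1.04 ± 0.21, adjusted p = 0.00206). Il6 changed by 6.87 without control 5. Il1b changed by 4.34 without control 5. Tnf had a log2 change of 0.27 without control 4. Tnfrsf11b lost its call at an adjusted p of 0.05 without the 3 libraries that stand apart. Tnfsf13b lost its call at an adjusted p of 0.0651 with limma-trend on TPM. Tlr13 changed by 5.28 without control 5.

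Most interferon-stimulated genes rose. Of 21 genes 18 rose and 1 fell, with a median of 1.68. Without the 3 libraries that stand apart 14 rose. Oasl2 was at 37.7, 36.2, 56.0, 48.0 and 87.7 CPM in controls and 432, 285, 346, 324 and 363 in grafts (2.78 ± 0.25, adjusted p = 2.42e-05), and the transcription factor Irf7 at 85.9, 58.4, 127, 52.8 and 99.9 CPM in controls and 513, 262, 363, 342 and 342 in grafts (2.15 ± 0.27, adjusted p = 0.000106), without overlap. In that list the GTPase gene Gbp2 did not pass (0.31 ± 0.16, adjusted p = 0.108) and Gbp3 rose (0.67 ± 0.17, adjusted p = 0.00754). Outside it Cxcl9, a chemokine best known as a target of interferon gamma, fell (-1.07 ± 0.21, adjusted p = 0.00133) and Cxcl10 rose (1.95 ± 0.46, adjusted p = 0.00445). The immunoproteasome subunit Psmb9 (-0.80 ± 0.18, adjusted p = 0.00371) and the peptide transporter Tap2 (-0.96 ± 0.17, adjusted p = 0.000932) fell, with Nlrc5 (-0.65 ± 0.23) and Psme2 (-0.34 ± 0.10). These were the 4 lower of 11 genes of antigen processing, whose median of -0.34 turned to 0.02 with TPM. Of the phagocyte oxidase and nitric oxide list 5 of 8 rose, among them Nos2, Ncf1 (1.73 ± 0.37, adjusted p = 0.00252), Cyba (1.82 ± 0.27, adjusted p = 0.000251) and Cybb (1.41 ± 0.41, adjusted p = 0.0128), while Ncf4 (0.80 ± 0.37), Rac2 (-1.03 ± 0.52) and Sod2 (-0.46 ± 0.22) did not pass. Gbp2 passed at an adjusted p of 0.0184 with limma-trend on TPM, 0.00514 with sample quality weights and 0.0275 without control 3. Gbp3 lost its call at an adjusted p of 0.0848 with all 15 samples in the fit and 0.0610 without the 3 libraries that stand apart. Psmb9 lost its call at an adjusted p of 0.227 with limma-trend on TPM. Nlrc5 lost its call in 10 of 20 alternatives (adjusted p 0.0568 to 0.332), by leaving out controls 1, 2 or 3 or grafts 2, 3, 4 or 5 or with library totals, with limma-trend on TPM or with no filter. Psme2 lost its call at an adjusted p of 0.591 with limma-trend on TPM. Cybb lost its call at an adjusted p of 0.0641 without the 3 libraries that stand apart. Ncf4 passed at an adjusted p of 0.0448 with all 15 samples in the fit, 0.0133 with sample quality weights and 0.0392 without control 3. Rac2 passed at an adjusted p of 0.00143 without the 3 libraries that stand apart, 0.000399 with sample quality weights and 0.000544 without control 4. Sod2 passed in 4 of 20 alternatives (adjusted p 0.0207 to 0.0469), by leaving out control 3 or graft 4 or with sample quality weights or with upper-quartile scaling.

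MHC class II genes, which present antigen to T cells, fell in every member. All 11 of 11 genes were lower (median -2.23). The invariant chain Cd74 was at 1453, 1420.5, 2160.1, 682 and 1417 CPM in controls and 390.2, 176, 384, 191 and 373 in grafts (-2.23 ± 0.34, adjusted p = 0.000319), and H2-Aa at 921, 808, 1224, 399 and 832 CPM in controls and 255, 106, 219, 101 and 244 in grafts (-2.20 ± 0.36, adjusted p = 0.000517). For both genes control 4 was the lowest control and still above every graft. H2-Ob, a B cell modifier of peptide loading, was at 252, 235, 355, 29.2 and 245 CPM in controls and 4.62, 1.93, 3.75, 1.17 and 3.12 in grafts (-6.07 ± 0.85, adjusted p = 0.000197), with control 4 far below the other controls. B cell markers stood at 173 CPM in control 4 and at 1246 to 2194 in the other controls, and dendritic cell markers at 30.7 to 166 CPM in the controls and 9.24 to 22.5 CPM in the grafts. Their part in the fall of MHC class II genes was not tested. The transactivator Ciita fell (-3.17 ± 0.62, adjusted p = 0.00140). H2-Ob changed by -6.67 without control 4.

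Macrophage genes did not move alike. Of 15 genes typical of resident macrophages 6 rose, 3 fell and 6 did not pass. The phosphatidylserine receptor Timd4, a marker of long-lived resident cells, was at 57.7, 38.4, 59.3, 25.8 and 59.2 CPM in controls and 2.53, 2.71, 1.29, 0.746 and 2.10 in grafts (-4.74 ± 0.44, adjusted p = 2.48e-05). Cd209d (-4.28 ± 0.61, adjusted p = 0.000226) and Retnla (-2.81 ± 0.82, adjusted p = 0.0131) fell too. The mannose receptor Mrc1 was at 84.2, 101, 60.3, 179 and 395 CPM in controls and 1521, 849, 1082, 1657 and 741 in grafts (3.11 ± 0.52, adjusted p = 0.000570), and Folr2 (2.45 ± 0.45), Cbr2 (2.53 ± 0.41) and F13a1 (2.76 ± 0.47) rose with it. In the list of recruited monocytes 9 of 12 rose and 1 fell. Among the higher were Chil3 (4.00 ± 0.84, adjusted p = 0.00233) and Fcgr1 (4.52 ± 0.49), while Ly6c2 did not pass (-0.62 ± 0.75, adjusted p = 0.494). Retnla changed by -2.19 without control 4. Chil3 changed by 4.92 without control 5. Ly6c2 passed at an adjusted p of 0.00269 without the 3 libraries that stand apart, 0.0150 with sample quality weights and 0.0154 without control 4.

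Receptors for dead cells and the lysosome were higher. Of 20 receptors and bridging proteins 14 rose. Trem2, a lipid receptor of macrophages, was at 3.31, 1.84, 1.70, 2.16 and 14.2 CPM in controls and 113, 90.3, 155, 140.1 and 102 in grafts (5.20 ± 0.45, adjusted p = 2.16e-05), and Msr1 (4.24 ± 0.48), Olr1 (4.22 ± 0.90, adjusted p = 0.00241) and Axl (1.49 ± 0.26) rose. The sinusoidal scavenger receptors Marco (-3.73 ± 0.61, adjusted p = 0.000486) and Stab2 (-4.49 ± 0.74, adjusted p = 0.000510) fell. Their control levels were lowest in control 4, the library with few lymph node transcripts. In the lysosome 28 of 30 genes rose and none fell (median 1.28). Ctss (2.69 ± 0.42, adjusted p = 0.000412), Ctsl (2.55 ± 0.37), the galactosidase Gla (2.86 ± 0.31) and the macrophage V-ATPase subunit Atp6v0d2 (3.20 ± 0.64, adjusted p = 0.00166) were among the larger changes. The lysosomal regulator Mitf rose (2.26 ± 0.27, adjusted p = 8.85e-05) and its relative Tfeb did not pass (-0.34 ± 0.27, adjusted p = 0.294). Complement genes went both ways, with 10 of 20 higher, such as the receptor C3ar1 (5.24 ± 0.60, adjusted p = 6.50e-05) and C1qb (2.06 ± 0.37), and 6 lower, such as Cfd, made by adipocytes (-2.94 ± 0.37), Clu (-2.87 ± 0.43) and C3 (-1.13 ± 0.30, adjusted p = 0.00802). Olr1 changed by 5.22 without control 5. Tfeb passed at an adjusted p of 0.00962 with sample quality weights.

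Genes of clotting and of plasmin control rose in nearly all cases. Of 17 tested 15 rose and none fell (median 2.53). Serpinb2, which blocks the plasminogen activators (ENSMUSG00000062345, chromosome 1, 107511423 to 107535478), was at 0.310, 0.115, 0, 0.0830 and 52.7 CPM in controls and 297, 118, 229, 495 and 237 in grafts (9.45 ± 1.40, adjusted p = 0.000286). The activators Plau (2.62 ± 0.27) and Plat (2.53 ± 0.41), the receptor Plaur (3.20 ± 0.40) and the clotting factors F7 (5.71 ± 0.52) and F10 (5.28 ± 0.76) rose too. Serpinb2 changed by 8.41 without control 3 and 11.24 without control 5. F10 changed by 5.92 without control 5.

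**Figure D4:**
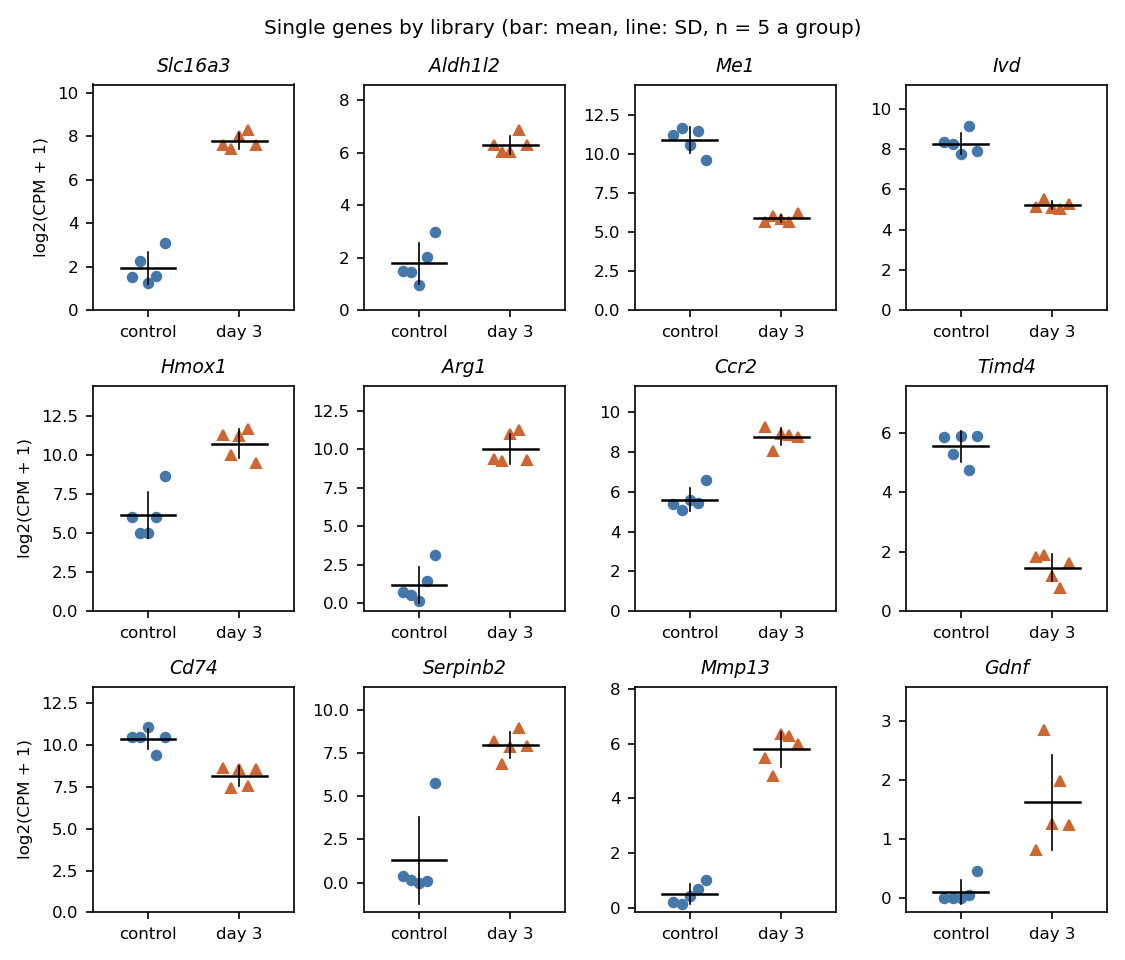
CPM of 12 genes in each library, drawn as log2(CPM + 1), with controls as circles and day 3 grafts as triangles, the mean of the plotted values as a horizontal bar and its SD as a vertical line. Hmox1, Arg1, Serpinb2, Mmp13, Slc16a3, Aldh1l2, Ccr2 and Gdnf are higher in every graft than in any control, and Me1, Ivd, Cd74 and Timd4 lower. Gdnf reached 10 counts in the 5 grafts alone.

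Most genes of matrix proteases, fibrillar collagens and matricellular proteins rose. In the protease list 15 of 19 rose and Timp4 fell (-2.60 ± 0.50, adjusted p = 0.00133). The collagenase Mmp13 (ENSMUSG00000050578, chromosome 9, 7272514 to 7283331) was at 0.155, 0.115, 0.358, 0.623 and 1.03 CPM in controls and 44.0, 27.3, 79.8, 77.6 and 62.8 in grafts (7.16 ± 0.74, adjusted p = 4.01e-05), and Adamts4 (4.60 ± 0.60) and Mmp10 (4.39 ± 0.73) rose. Of 23 collagen chains 15 rose. Col3a1 was at 1485, 1119, 847, 3189.8 and 4627 CPM in controls and 19414, 15379, 8597, 18746 and 18930.0 in grafts (3.09 ± 0.50, adjusted p = 0.000496), and Col12a1 (4.30 ± 0.31), Col8a1 (3.68 ± 0.44) and Col1a1 (3.68 ± 0.49) rose. The 4 chains that fell were the basement membrane chain Col4a3 (-2.57 ± 0.43, adjusted p = 0.000600), Col7a1 (-0.97 ± 0.26), Col6a5 (-2.56 ± 0.65) and Col6a6 (-1.41 ± 0.39). Among matricellular proteins and proteoglycans 18 of 24 rose, with the hyaluronan synthase Has1 (4.86 ± 0.95), Tnc (4.10 ± 0.63) and Postn (2.90 ± 0.50), and the exceptions were Fmod (-4.22 ± 0.91, adjusted p = 0.00256) and the elastin gene Eln (-1.45 ± 0.43, adjusted p = 0.0139). Lrrc15 and Cthrc1, markers of activated fibroblasts, were at 119, 47.2, 46.5, 60.6 and 109 CPM and 227, 171, 111, 179 and 222 CPM in the grafts (6.84 ± 0.89, adjusted p = 0.000131 and 6.29 ± 1.01, adjusted p = 0.000456). Control 5 held the highest control value of both, 9.23 and 50.1 CPM. In the list of fibroblasts and adipose progenitors 9 of 20 rose, among them Ly6a (2.11 ± 0.31) and Pdgfra (1.87 ± 0.39, adjusted p = 0.00231), and Gsn (-1.68 ± 0.31), Smoc2 (-1.56 ± 0.46, adjusted p = 0.0142) and Cd55 (-0.84 ± 0.27) fell. Dpp4 (-0.30 ± 0.24) and Pi16 (-0.15 ± 0.52), markers of early progenitors, did not pass. Col7a1 lost its call at an adjusted p of 0.768 with limma-trend on TPM. Has1 changed by 4.14 without control 3 and 5.45 without control 5. Tnc changed by 4.74 without control 5. Fmod changed by -4.82 without control 4. Lrrc15 changed by 7.83 without control 5. Cthrc1 changed by 5.41 without control 2 and 7.43 without control 5. Cd55 lost its call at an adjusted p of 0.166 with limma-trend on TPM, 0.0513 without graft 3 and 0.0572 without graft 4.

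Genes of sprouting vessel tips rose, and several lymphatic genes were called lower with overlap between the groups. The part of the lymph node transcripts of the controls in these lymphatic values was not tested. Beside the 28.8% of all genes that rose and the 28.5% that fell, 10 of 25 endothelial genes rose and 5 fell. In that list 5 genes were above every control in every graft and 0 were below. The count of lower genes was 3 without control 1, control 5 or graft 1, 2 without graft 3, graft 4 or the 3 libraries that stand apart, 2 with limma-trend on TPM and 8 with sample quality weights. Apln was at 3.47, 2.47, 2.95, 6.48 and 3.98 CPM in controls and 182, 548, 352, 189.9 and 110.2 in grafts (5.98 ± 0.51, adjusted p = 2.13e-05), and the tip cell genes Esm1 (4.80 ± 0.52, adjusted p = 5.06e-05), Angpt2 (3.39 ± 0.53, adjusted p = 0.000406) and Dll4 (2.48 ± 0.43) rose. The endothelial synthase Nos3, Rgcc (-0.84 ± 0.32, adjusted p = 0.0423) and the lymphatic genes Prox1 (-2.74 ± 0.63, adjusted p = 0.00379), Reln (-1.69 ± 0.59) and Mmrn1 (-2.31 ± 0.77) fell, but Flt4, a receptor of lymphatic endothelium, rose (1.16 ± 0.37, adjusted p = 0.0210) and Lyve1 did not pass (-0.50 ± 0.64, adjusted p = 0.518). Vegfa, the main angiogenic ligand, was at 243, 230.3, 156, 487 and 135 CPM in controls and 90.1, 285, 169.9, 248 and 205 in grafts, and did not pass (-0.27 ± 0.38, adjusted p = 0.556). The placental growth factor Pgf rose (5.88 ± 0.56, adjusted p = 2.90e-05) and Vegfb fell (-2.19 ± 0.46, adjusted p = 0.00223). In all 10 of 15 angiogenic ligands rose, and Angpt1, which steadies vessels, fell with Vegfb (-0.90 ± 0.26, adjusted p = 0.0130). Of 14 genes of smooth muscle and pericytes 6 fell and 2 rose, and with TPM 3 and 3. The contractile Myh11 was at 33.0, 24.7, 31.3, 18.2 and 23.0 CPM in controls and 1.5, 5.69, 2.33, 1.39 and 1.05 in grafts (-3.67 ± 0.38, adjusted p = 4.11e-05) and Cnn1 fell (-2.13 ± 0.30, adjusted p = 0.000221), while Acta2, shared with myofibroblasts, and Smtn rose (1.16 ± 0.23, adjusted p = 0.00158 and 1.90 ± 0.19, adjusted p = 3.25e-05). Rgcc lost its call in 11 of 20 alternatives (adjusted p 0.0524 to 0.193), by leaving out controls 1, 2, 4 or 5 or grafts 1, 3, 4 or 5 or without the 3 libraries that stand apart, with limma-trend on TPM or with no filter. Reln changed by -2.35 without graft 2. Reln lost its call in 9 of 20 alternatives (adjusted p 0.0557 to 0.144), by leaving out controls 1 or 5 or grafts 1, 3, 4 or 5 or without the 3 libraries that stand apart, with limma-trend on TPM or with the replicate block. Mmrn1 lost its call at an adjusted p of 0.0679 with limma-trend on TPM, 0.0552 without graft 3 and 0.0644 without graft 4. Flt4 lost its call at an adjusted p of 0.0511 without control 2. Angpt1 lost its call at an adjusted p of 0.0702 without the 3 libraries that stand apart. Cnn1 lost its call at an adjusted p of 0.0600 with all 15 samples in the fit and 0.123 with limma-trend on TPM.

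Several myelin genes fell, and other genes in the list of Schwann cells and nerve repair rose. Prx, a protein of peripheral myelin, was at 15.7, 8.16, 8.01, 11.3 and 8.76 CPM in controls and 2.33, 5.59, 3.33, 2.42 and 2.29 in grafts (-1.74 ± 0.29, adjusted p = 0.000580). Mag (-1.12 ± 0.27) and Mbp (-0.87 ± 0.15, adjusted p = 0.000773) fell too. Gdnf, a factor for neurons, was at 0, 0, 0, 0.0415 and 0.375 CPM in controls and 0.75, 6.15, 1.37, 2.95 and 1.35 in grafts (5.22 ± 0.92, adjusted p = 0.000772). Gdnf reached 10 counts in the 5 grafts alone, so its difference was built into the choice of genes. Gap43, a protein of growing axons (2.61 ± 0.58, adjusted p = 0.00304), Egr2 (2.17 ± 0.34) and Runx2 (1.34 ± 0.36) rose as well. In all 8 of 17 genes of Schwann cells and nerve repair fell and 5 rose. Of all genes 28.5% were called lower and 28.8% higher, so the count of higher members was near the share over all genes. Gdnf changed by 5.95 without control 5.

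In several lists of basic cell machinery many members were not called, and the counts moved with the settings. Values given as with TPM come from limma-trend on TPM. Mitochondrial ribosomal proteins were lower in 40 of 78 cases and higher in 3 (median -0.41), with TPM in 18 and 13 (median -0.08), and without the 3 libraries that stand apart in 19 and 7. The 3 higher were Mrpl52 (0.88 ± 0.16, adjusted p = 0.00105), Mrpl33 (0.70 ± 0.15, adjusted p = 0.00286) and Mrpl54 (0.47 ± 0.12, adjusted p = 0.00627). Proteasome subunits were higher in 14 of 38 (median 0.30), with TPM in 31, and in 8 to 25 when single libraries were left out. The one that fell was Psmb9. Ribosome biogenesis had 3 higher and 5 lower of 22 (median -0.12), which turned to 6 higher, none lower and a median of 0.18 with TPM, and to 1 higher and 10 lower without the 3 libraries that stand apart. Myc (1.10 ± 0.20, adjusted p = 0.00102), Npm1 (0.68 ± 0.19, adjusted p = 0.0118) and Gnl3 (0.53 ± 0.17, adjusted p = 0.0184) were the higher ones and Dkc1 (-0.72 ± 0.14, adjusted p = 0.00128), Wdr12 (-0.51 ± 0.15), Rrs1 (-0.48 ± 0.16), Polr1b (-0.52 ± 0.16) and Polr1a (-0.34 ± 0.12) the lower ones. Of 19 circadian genes 3 rose and 3 fell, and 7 fell without control 5, 6 with the replicate block and 9 with sample quality weights. Nfil3 (1.85 ± 0.46, adjusted p = 0.00607), Bhlhe40 (1.25 ± 0.28) and Arntl (0.82 ± 0.32, adjusted p = 0.0494) rose, and Hlf (-3.12 ± 0.90) and Tef (-1.15 ± 0.36, adjusted p = 0.0179) were among those that fell. The caveolar coat genes Cav1 (0.14 ± 0.31, adjusted p = 0.731) and Cavin1 (0.76 ± 0.34, adjusted p = 0.0753) did not pass, Cavin3 (1.33 ± 0.21) and Pacsin2 (0.99 ± 0.13) rose, and Cavin2 (-1.35 ± 0.32) and Pacsin3 (-1.09 ± 0.32) fell. Npm1 lost its call at an adjusted p of 0.0520 without the 3 libraries that stand apart. Gnl3 lost its call at an adjusted p of 0.124 without the 3 libraries that stand apart and 0.0520 with library totals. Dkc1 lost its call at an adjusted p of 0.160 with limma-trend on TPM. Wdr12 lost its call at an adjusted p of 0.0921 with library totals and 0.721 with limma-trend on TPM. Rrs1 lost its call in 6 of 20 alternatives (adjusted p 0.0507 to 0.336), by leaving out grafts 3 or 4 or without the 3 libraries that stand apart, with limma-trend on TPM, with no filter or with the replicate block. Polr1b lost its call in 4 of 20 alternatives (adjusted p 0.0570 to 0.285), by leaving out graft 4 or with library totals, with limma-trend on TPM or with no filter. Polr1a lost its call in 11 of 20 alternatives (adjusted p 0.0554 to 0.995), by leaving out controls 1, 2, 3 or 5 or grafts 2, 4 or 5 or with library totals, with limma-trend on TPM, with no filter or with the replicate block. Arntl lost its call in 11 of 20 alternatives (adjusted p 0.0544 to 0.222), by leaving out controls 1, 2 or 3 or grafts 1, 3, 4 or 5 or with the filter at 1 CPM, without the 3 libraries that stand apart, with the replicate block or with upper-quartile scaling. Tef lost its call at an adjusted p of 0.144 without the 3 libraries that stand apart and 0.0537 with limma-trend on TPM. Cavin1 passed in 7 of 20 alternatives (adjusted p 0.000503 to 0.0387), by leaving out control 4 or graft 1 or with all 15 samples in the fit, without the 3 libraries that stand apart, with library totals, with limma-trend on TPM or with sample quality weights.

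Among the genes with the largest changes were several outside these lists. Hmga2, a chromatin protein of growing mesenchyme, was at 0, 0, 0, 0 and 1.78 CPM in controls and 6.2, 14.6, 9.74, 8.10 and 15.4 in grafts (7.48 ± 0.98, adjusted p = 0.000133). Chga, which encodes the granule protein chromogranin A, was at 0.103, 0, 0, 0.0415 and 0.328 CPM in controls and 6.16, 16.6, 10.4, 3.84 and 15.8 in grafts (7.01 ± 0.97, adjusted p = 0.000193). Chga and, further below, Fam177a reached 10 counts in the 5 grafts alone, so their difference was built into the choice of genes. Thrsp, a regulator of lipid synthesis, was at 2092, 1635, 1029, 2002 and 764 CPM in controls and 2.61, 5.52, 2.00, 2.27 and 3.83 in grafts (-8.84 ± 0.37, adjusted p = 6.93e-07), and the cytochrome Cyp2e1 at 1619, 1782, 932, 5856 and 3333 CPM in controls and 14.0, 8.65, 5.41, 2.59 and 17.1 in grafts (-8.14 ± 0.59, adjusted p = 1.27e-05). Spp1, the secreted phosphoprotein osteopontin, was at 7.40, 1.61, 1.3, 2.62 and 96.4 CPM in controls and 1080.3, 1129.9, 2175, 2639 and 1228 in grafts (8.18 ± 0.95, adjusted p = 7.22e-05), and Mmp12, the macrophage elastase, at 1.6, 2.13, 1.70, 1.16 and 5.48 CPM in controls and 228, 214, 369, 224 and 384 in grafts (7.05 ± 0.38, adjusted p = 5.49e-06). Among the 15 lowest were lymph node genes. The B cell genes Cr2 (-9.39 ± 1.61), Fcer2a (-8.68 ± 1.36), Tnfrsf13c (-8.25 ± 1.64), Ms4a1 (-8.05 ± 1.11) and Cd79a (-7.92 ± 1.07) fell. Glycam1, of the vessels by which lymphocytes enter nodes (-10.75 ± 2.75), and the lymphoid chemokine gene Ccl21a (-9.14 ± 3.40) fell as well, as did Pcdh15 (-8.49 ± 1.29), Dsc3 (-7.94 ± 2.30) and Cacna1i (-7.92 ± 1.86). Serpina10 was at 12.9, 9.89, 22.1, 0.830 and 10.7 CPM in controls and listed at 0 in all 5 grafts. For each of these B cell and node genes and the 4 others, control 4 was the lowest control. The part of lymph node tissue in these values was not tested. Cr2, Tnfrsf13c, Pcdh15, Dsc3, Cacna1i and Serpina10 reached 10 counts in the 5 controls alone, so their difference was built into the choice of genes. The top fitted change among called genes without overlap and with 10 CPM in 1 group was that of Fam177a (ENSMUSG00000095595, chromosome 12, 55124469 to 55142104), which was at 0 CPM in all 5 controls and at 48.4, 52.9, 55.8, 56.0 and 22.4 CPM in grafts. Its near copy Fam177a2 was at 47.9, 48.3, 49.7, 55.0 and 40.2 CPM in controls and 5.29, 0, 0, 0 and 30.5 in grafts. Since reads can be assigned to either copy, neither change can be read by itself, and their sum was 47.9, 48.3, 49.7, 55.0 and 40.2 CPM in controls and 53.7, 52.9, 55.8, 56.0 and 52.9 in grafts. Hmga2 changed by 8.73 without control 5. Spp1 changed by 9.25 without control 5. Cr2 changed by -10.01 without control 4. Tnfrsf13c changed by -8.87 without control 4 and -7.63 without graft 4. Cd79a changed by -8.52 without control 4. Glycam1 changed by -11.73 without control 4 and -11.69 without graft 2. Ccl21a changed by -10.49 without control 4. Ccl21a lost its call in 11 of 20 alternatives (adjusted p 0.0519 to 0.0714), by leaving out controls 1, 2, 3 or 5 or grafts 1, 2, 3, 4 or 5 or with library totals or with no filter. Pcdh15 changed by -9.19 without control 4. Dsc3 changed by -8.93 without control 4. Cacna1i changed by -8.79 without control 4.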

How the data were processed

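Stranded mRNA libraries were read from both ends (151 bp), according to the labels. Per the submitters' processing notes, reads were handled with RSEM 1.3.1, STAR 2.7.1a and cutadapt 2.8 on mm10, with no gene annotation release named. The authors deposited one matrix with, per gene and sample, estimated counts, RPKM and TPM, 45 value columns, all matched to samples by name. The deposited count columns hold whole numbers written with digit separators. These separators were removed, and the numbers were filtered, scaled and fitted as counts with voom. Because of the separators the unit had been entered as another kind, and the quasi-likelihood count test that is usual for counts was not run. RPKM values deposited by the authors were not used. TPM values deposited by the authors served for shares within gene pairs and as an alternative to the counts.

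Genes with at least 10 counts in at least 5 of the 10 libraries were tested with voom and limma 3.58.1 in R 4.3.3 (two-sided moderated test, Benjamini-Hochberg over all 15415 genes, called under 0.05). Scaling of library size used trimmed means (TMM) that drop 30% of log ratios and 5% of levels at each end. Fits used the 10 libraries of the comparison with the precision weights of voom, no sample quality weights and no replicate block. Files were read with the data.table package (1.17.8) and figures drawn with matplotlib 3.10.9. For symbols with several entries, that with the most counts stands for the gene. The procedure was tested on simulated data. Alternatives were library totals, median-of-ratios and upper-quartile scaling, a filter at 1 CPM, no filter, all 15 samples in 1 fit, the replicate block, sample quality weights, limma-trend on log2(TPM + 1), leaving out controls 2 and 4 and graft 1, and leaving out each library. Depth per library limits genes near 1 CPM most.

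Some genes that the rule names are not reported here. Genes, lists, markers and pairs were chosen with earlier results of these data known, so list counts and medians are descriptions without a test. Named were the 15 highest and 15 lowest called genes with at least 10 CPM in 1 group and no overlap, the 4 highest and 4 lowest called members of each list at that level, every member of lists of up to 8, called members against a list's majority, tested pair genes and the 10 most abundant genes of each group, as far as the text had room. The following genes fall outside that rule and were chosen after their values were seen: Akt2, Aldh18a1, Axl, Bckdha, Blvra, Blvrb, Cav1, Cavin1, Cd74, Cdc20, Ch25h, Chil3, Ciita, Cnn1, Csf2, Csf3, Dpp4, Egr3, Elovl3, Fam177a2, Flt4, Folr2, Fth1, G6pdx, Gbp2, H2-Aa, Hbb-bs, Il11, Il1a, Irf7, Itga2b, Lif, Ly6c2, Lyve1, Mag, Mitf, Mki67, Mmp10, Mthfd2, Nr4a1, Nr4a2, Nr4a3, Odc1, Olr1, Pgd, Pi16, Plat, Plau, Plaur, Postn, Ppara, Sat1, Tfeb, Tnc and Tnf.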

Additional observations from a re-analysis of the deposited data

Results flagged for a closer look

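For each named gene with at least 1 CPM in some library of a group, the highest and the lowest of the 5 libraries were set against the rest on the log2(CPM + 1) scale. In 60 of 676 such sets 1 library lay apart from the other 4 by more of the range (0.71) than Dixon's test allows at 95%, where chance alone gives about 1 in 20. Control 5 lay above the other controls for Acod1 (1.83 CPM, others 0.0575 to 0.291), Angpt2 (17.9, others 4.47 to 5.69), Atp6v0d2 (6.89, others 0.671 to 1.62) and Ccl2 (35.5, others 3.15 to 4.76). Likewise apart were Ccl7 (43.0 CPM, others 2.7 to 4.71), Clec4d (26.9, others 0.172 to 1.09), Csf3 (1.64, others 0 to 0.0895) and Cxcl3 (1.41, others 0 to 0.125). To these came Cxcl5 (14.1 CPM, others 0 to 0.208), F10 (7.17, others 0.632 to 0.996), Fosl1 (3.23, others 0.0447 to 0.415) and Fpr1 (5.62, others 0.115 to 0.457). In control 5 the set went on with Gla (24.0 CPM, others 7.13 to 8.76), Hmga2 (1.78, others 0), Hmox1 (415, others 31.8 to 66.4) and Il6 (3.09, others 0.172 to 0.249). Next in control 5 were Lrrc15 (9.23 CPM, others 0.115 to 0.569), Msr1 (68.5, others 11 to 18.7), Nlrp3 (4.68, others 1.49 to 1.99) and Olr1 (4.12, others 0.0575 to 0.207). Control 5 was also above the others for Pgm2 (23.7 CPM, others 9.66 to 12.3), Ptgs2 (7.78, others 0.761 to 1.70), Retnlg (16.3, others 0.358 to 0.460) and S100a8 (33.1, others 1.62 to 3.04). In the same library Serpinb2 (52.7 CPM, others 0 to 0.310), Steap1 (6.51, others 0.179 to 0.664), Timp1 (93.3, others 1.67 to 4.24) and Tlr13 (42.1, others 3.16 to 6.73) lay above the others. Another group was Tnfrsf11b (4.17 CPM, others 0.287 to 0.828) and Trem2 (14.2, others 1.70 to 3.31). Control 4 lay below the other controls for Ccl19 (1.87 CPM, others 36.7 to 95.0), Ccl21a (2.03, others 134 to 396), Cd79a (30.5, others 208 to 398) and Cr2 (17.3, others 122 to 250.0). Likewise apart were Glycam1 (3.82 CPM, others 113 to 151), H2-Ob (29.2, others 235 to 355), Ly6c2 (3.74, others 33.1 to 54.7) and Ms4a1 (28.2, others 184 to 308). To these came Mthfd1l (1.37 CPM, others 16.4 to 27.2), Pcdh15 (1.45, others 10.9 to 17.7), Rac2 (37.6, others 220.2 to 357) and Tnf (0.872, others 8.10 to 13). In control 4 the set went on with Tnfrsf13c (5.23 CPM, others 34.4 to 55.3). Control 4 lay above the other controls for Blvrb (45.3 CPM, others 27.8 to 31.8), Car3 (21104, others 7029 to 9452), Cfd (15781, others 5440.0 to 6899) and Gsn (9553, others 2856 to 3781). Likewise apart were Mrpl54 (26.9 CPM, others 18.3 to 19.9), Pde3b (749, others 225 to 317) and Rrs1 (40.5, others 23.9 to 25.9). Graft 2 lay above the other grafts for Esm1 (38.4 CPM, others 14.5 to 17.9), Reln (7.06, others 0.666 to 0.853) and Timp4 (11.3, others 2.46 to 3.94). Graft 3 lay below the other grafts for Col3a1 (8597 CPM, others 15379 to 19414) and Pfkm (13.6, others 18.0 to 19.2). Graft 1 lay below the other grafts for Bckdha (16.2 CPM, others 25.6 to 29.3). Graft 2 lay below the other grafts for Hsp90b1 (1374 CPM, others 1630.1 to 1674). Graft 4 lay above the other grafts for Eef1a1 (8972 CPM, others 6141 to 6822). Graft 4 lay below the other grafts for Cyp27a1 (6.89 CPM, others 13.4 to 14.8). Graft 5 lay below the other grafts for Fam177a (22.4 CPM, others 48.4 to 56.0). Genes of neutrophil and monocyte attraction, clotting and matrix are among those high in control 5, and lymphoid genes among those low in control 4. No cause was tested.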

How the results depend on the processing

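Of 352 named genes, 343 were run under all 20 alternatives, and 9 were removed by the filter at 1 CPM. Of the 343, 273 kept their direction and their side of the threshold in all. Of the 352, 66 lost or gained the call under at least 1, and 8 turned direction under at least 1. None of those 8 turned from a call in one direction to a call in the other. Cav1 turned to -0.02 without control 5, and Cxcr2 to -0.25 without controls 2 and 4 and graft 1 and to -0.02 without control 4. Il1a turned to -0.82 without those 3 libraries, -0.02 with the replicate block, -0.01 without control 2, -0.47 without control 4 and -0.11 without graft 3. Pi16 turned to 0.10 without the 3 libraries, 0.14 with TPM, 0.10 without control 4 and 0.23 without graft 3, and Vegfa to 0.38 without the 3 libraries and 0.01 without control 4. Slc16a1 turned to 0.10 with TPM, 0.19 with sample quality weights and 0.05 without control 4, Sod2 to 0.04 with TPM and Polr1a to 0 with TPM. Left-out libraries gave changes of up to 0.41 for Cav1, 1.10 for Cxcr2 and 0.50 for Il1a, and down to -0.50 for Pi16, -0.37 for Slc16a1 and -0.46 for Vegfa. The cause of these turns was not tested.

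Scaling alone gave 3774 to 4934 lower genes, no filter 5502 and quality weights 5624. With limma-trend on TPM, which changes measure, offset and test together, 2678 genes were lower, 1320 of them at least 2-fold, and 68.6% of called genes were higher in place of 50.3%. Upper-quartile scaling moved the median change to -0.11, with 3969 higher and 4934 lower genes. Without a filter on low counts 4148 genes were at least 2-fold lower, where more genes were tested. Leaving out single libraries gave 3871 to 4871 higher and 3745 to 4817 lower genes, of which 2355 to 2649 and 2300 to 2659 were at least 2-fold.

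Controls and grafts carry the same replicate numbers. Deviations from the group mean in same-numbered libraries correlated at -0.15, 0.03, 0.26, 0.01 and -0.09 over genes, and 1 of 5 controls correlated best with its own number. With 5 libraries a group this check cannot decide whether the numbers pair the samples, and no label says that they do. A fit with the replicate block called 4218 genes higher and 4241 lower, with 2501 and 2626 at least 2-fold. In simulated counts with 5 libraries a group, 98.5% of genes changed 4-fold, 47% of those changed 2-fold and 3.03% of those changed 1.5-fold were called, with 7 false calls at a dispersion of 0.1. These rates hold for 1 dispersion shared by all genes and for 200 changed genes, fewer than were called in the real data. A gene short of the threshold may still differ by 2-fold or more, as Hbb-bs did not pass at a log2 change of 2.28.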
